A study of Mus musculus with 16 samples.

Results

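The A-type potassium channel of the Kv4 type was examined through 8 genes of its complex: the pore genes Kcnd2 and Kcnd3, the KChIP genes Kcnip1, Kcnip2, Kcnip3 and Kcnip4, and the dipeptidyl-peptidase-like genes Dpp6 and Dpp10. The genes were listed by name, with earlier results of these data known. They are 8 of the 25006 genes listed in the files and 8 of the 12390 that had enough counts for a comparison of the genotypes. Messenger RNA was collected from dopaminergic neurons of the substantia nigra pars compacta (SNc) by RiboTag, where chosen cells make a tagged ribosomal protein that is pulled down with the mRNA on its ribosomes. The control group was 8 DAT-Cre+/- mice and the MCU-KO group was 8 DAT-Cre+/- MCU fl/fl mice, in which Cre removes a floxed part of the mitochondrial calcium uniporter gene Mcu. All 16 mice therefore carried 1 copy of Cre driven by the dopamine transporter gene (Slc6a3), and all had received an AAV9 vector in which the tagged protein Rpl22l1 is made only where Cre is active. The labels give an age of postnatal day 45 for every mouse and tissue collection 30 days after the injection. Each mouse gave 1 library, and the mouse was the replicate.

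Kv4 channels open at subthreshold voltages and inactivate within milliseconds, and the outward current they carry slows the approach to the next spike. In SNc dopaminergic neurons this A-type current is known as a regulator of autonomous pacemaking. The pore is a tetramer of Kv4 subunits. KChIPs are cytosolic calcium-binding proteins of the neuronal calcium sensor family that bind the amino-terminal part of the pore, raise its surface level and slow its inactivation. DPP6 and DPP10 are single-pass membrane proteins, related to dipeptidyl peptidases but without enzyme activity, that speed up the gating of the channel.

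Because the members belong to families of like sequence, the stretches that separate them in a read count were looked at first. The aligned coding sequences of Kcnd2 and Kcnd3 were identical at 73.3% of bases, those of the 6 pairs of KChIP genes at 68.4% to 72.4%, and those of Dpp6 and Dpp10 at 59.2%. The longest run of bases shared by both pore genes had 23 bases, and that of the most abundant KChIP pair, Kcnip3 and Kcnip4, had 17 bases. Both are shown to let a reader see how soon the paralogs part on either side. Each window is read 5′ to 3′ along the coding strand from GENCODE M21 on GRCm38, the shared run is in capitals, and each window lies within 1 coding exon.
Kcnd2 (chr6:21216521-21216591, + strand): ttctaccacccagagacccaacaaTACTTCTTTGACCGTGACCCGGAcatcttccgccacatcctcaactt
Kcnd3 (chr3:105459035-105459105, + strand): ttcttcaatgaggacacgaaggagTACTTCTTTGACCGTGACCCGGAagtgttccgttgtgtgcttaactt
Kcnip3 (chr2:127460023-127460087, - strand): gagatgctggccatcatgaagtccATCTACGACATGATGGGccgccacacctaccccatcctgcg
Kcnip4 (chr5:48396691-48396755, - strand): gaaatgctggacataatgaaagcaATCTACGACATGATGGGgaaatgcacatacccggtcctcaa
The pore windows encode part of the T1 domain, through which Kv4 subunits assemble. No run shared between 2 coding sequences of a family was longer than 23 bases, so a read of 50 bases within them could not match both members without mismatches.

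On the genome (GRCm38) the pore genes lie at chr6:21215503-21729805 on the plus strand (Kcnd2, ENSMUSG00000060882) and at chr3:105452330-105674002 on the plus strand (Kcnd3, ENSMUSG00000040896). The KChIP genes lie on the minus strand at chr11:33629339-33993152 (Kcnip1, ENSMUSG00000053519), chr19:45791839-45816061 (Kcnip2, ENSMUSG00000025221), chr2:127456498-127522094 (Kcnip3, ENSMUSG00000079056) and chr5:48389502-49524907 (Kcnip4, ENSMUSG00000029088). Dpp6 (ENSMUSG00000061576) lies at chr5:26817203-27727505 on the plus strand and Dpp10 (ENSMUSG00000036815) at chr1:123321471-124045559 on the minus strand. Counts cover the exons of each gene, UTRs included. Of the exon bases of Kcnip4, 7.36% overlap genes on the opposite strand, as do 1.72% of those of Kcnd3, and the sources used here do not say whether counting used the strand. Stretches of 50 bases were also sought in transcripts of other genes, in either direction, so that antisense overlaps count as well. The share found was 3.49% for Kcnip4, 3.07% for Dpp10, 1.21% for Kcnd3 and under 1% for the others.

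The libraries held 18999107 to 22016362 counts in control mice and 14129527 to 20582204 in MCU-KO mice, where mouse 8 had the lowest total. All 10 dopaminergic marker genes were detected in every mouse, with a summed level of 13665 to 17250 CPM (counts scaled to the library total) in control and 12115 to 19462 CPM in MCU-KO mice. Markers of other cells were also present: the 6 oligodendrocyte genes summed to 2788 to 5548 CPM in control and 3326 to 6589 CPM in MCU-KO mice, and the 6 astrocyte genes to 326 to 665 and 452 to 908 CPM. The 4 markers of GABAergic neurons summed to 149 to 327 CPM and 137 to 343 CPM. Microglial (6 genes), endothelial (3 genes) and oligodendrocyte precursor (2 genes) lists stayed at or below 142 CPM in every mouse, and no listed marker was at 0 in all mice. The summed levels overlapped between genotypes for all 7 lists, the smallest p being 0.0751 for endothelium (exact permutation test over 12870 splits, two-sided, n = 8 and 8). The part of these cells in the levels of the Kv4 genes was not tested beyond a fit with the glial markers as a covariate. In bulk libraries of this kind, fewer cells of a type and less RNA per cell cannot be told apart.

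The targeted gene was examined as a check of the labels. Normalized counts, which are counts divided by size factors so that libraries can be compared, ranged for Mcu from 120 to 828 with a median of 401 in control mice and from 5.82 to 410 with a median of 246 in MCU-KO mice. Mice of both genotypes overlapped. Its log2 fold change came to -1.19 (SE 0.59, 95% confidence interval -2.41 to 0.04, adjusted p = 1, quasi-likelihood test of edgeR, Benjamini-Hochberg over all genes tested). The unadjusted p was 0.0569 (same edgeR test). Counts summed over the whole gene include any exons outside the floxed part, so they check the deletion only in part. The paper checked the knockout by qRT-PCR of Mcu in RiboTag mRNA and by mitochondrial calcium imaging, and reports it as verified by both.

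The first question was which subunits of the complex had messages in the RiboTag libraries of control mice. These libraries also held markers of other cells, and no library of whole tissue was among the samples. Enrichment of a member in dopaminergic neurons was therefore not tested. Kcnd3, which encodes Kv4.3, was the leading pore gene, and Kcnd2, which encodes Kv4.2, was lower in each of the 8 control mice. Kcnip4 and Kcnip3 made up most of the KChIP message, and Dpp6 exceeded Dpp10 in every control mouse. Kcnip1 and Kcnip2 were low and uneven among mice. The remaining Kv4 pore gene, Kcnd1, was also low and uneven.

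Kcnd3 had 5121 normalized counts in the lowest control mouse, a median of 6318 and 10969.7 in the highest. Control mouse 1 stood above the other 7 control mice, which lay between 5121 and 7269. Kcnd2 ranged from 379 to 920 normalized counts with a median of 625. Per kb of exon the ranges did not meet, with 534 to 1144 for Kcnd3 and 73.6 to 179 for Kcnd2. Kcnd1, which encodes Kv4.1, ranged from 0 to 423 with a median of 124 and had no count in 1 control mouse.

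Among the KChIP genes, Kcnip4 (KChIP4, some isoforms of which suppress fast inactivation) ranged from 1729 to 3864 normalized counts with a median of 2885 in control mice. Kcnip3 (KChIP3, also known as DREAM and calsenilin) ranged from 918 to 2153 with a median of 1743. In control mice 2 and 5 Kcnip3 exceeded Kcnip4 per kb of exon, and in the other 6 it did not. Kcnip1 ranged from 3.08 to 672 with a median of 408, the lowest value being 3 counts in control mouse 7. Kcnip2, the main KChIP of heart muscle, ranged from 0 to 350 with a median of 95.2. It had no count in control mouse 1, where 3 counts would have been 0.149 CPM, and its highest value came from control mouse 7.

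Dpp6 ranged from 2428 to 5350 normalized counts with a median of 4115, and Dpp10 from 1154 to 2630 with a median of 1384. Control mouse 2 had the lowest Dpp6, and control mouse 6 had the highest Dpp10.

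**Figure D1:**
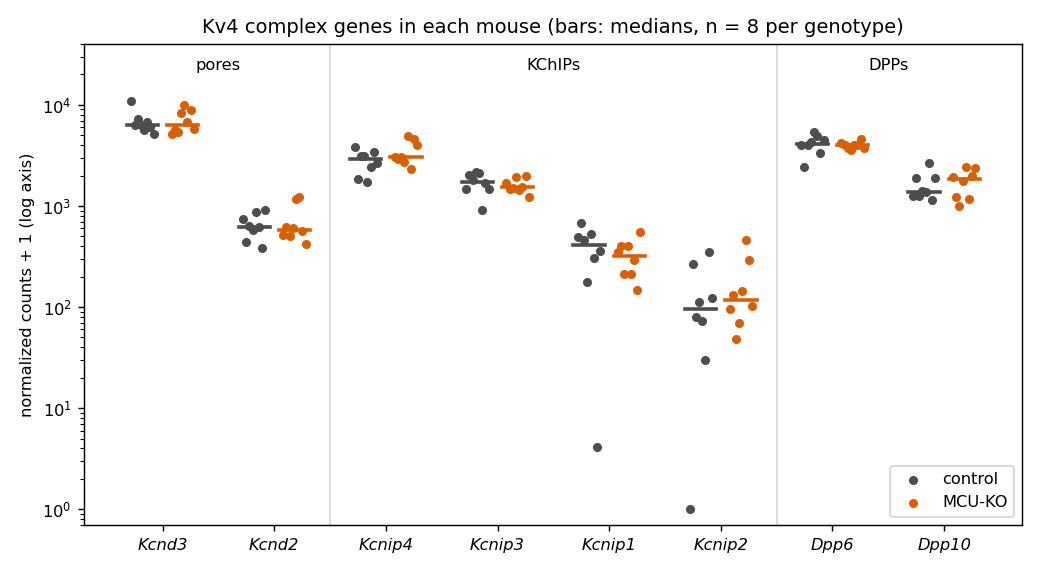
Normalized counts plus 1 of the 8 Kv4 complex genes (log axis), each point 1 mouse, 8 control (grey) and 8 MCU-KO (orange), horizontal bars at the medians. The genotypes overlap for every gene, Kcnd3 lies above Kcnd2 in every mouse, and Kcnip1 in control mouse 7 (3 counts) and Kcnip2 in control mouse 1 (0 counts) lie far below the other mice.

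Levels of different genes were compared per kilobase of exon, on the assumption that a longer message gives more fragments. The library kit is not given in the sources used here, and the length joins the exons of all transcripts of a gene. The p-values of the ratios below measure the spread between mice, not an error in these lengths. On this scale the order in control mice was Kcnip4 with 762 ± 205 normalized counts per kb of exon (SD, n = 8), Kcnd3 with 710 ± 188, Kcnip3 with 480 ± 117 and Dpp6 with 332 ± 74.1. The lower 4 were Kcnd2 with 126 ± 37.2, Dpp10 with 101 ± 31.7, Kcnip1 with 60.4 ± 34.3 and Kcnip2 with 36.9 ± 34.4. Kcnd1 had 32.1 ± 29.8. Kcnip4 was above 87.0% and Kcnd3 above 86.2% of the genes tested on this scale, while Dpp10 was above 48.8% and Kcnip2 above 25.5%.

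Ratios were then taken within each mouse and tested over the 8 control mice by an exact sign-flip permutation test (two-sided, 256 sign patterns, smallest possible p 0.0078, Benjamini-Hochberg adjustment over 11 ratios). The log2 ratio of Kcnd3 to Kcnd2 per kb was 2.51 ± 0.55 (SD, n = 8), a 5.71-fold excess that ranged from 1.58 to 3.10 on the log2 scale (8 of 8 mice, exact p = 0.00781, adjusted p = 0.0172). Dpp6 to Dpp10 had a log2 ratio of 1.73 ± 0.51, or 3.32-fold (8 of 8 mice, adjusted p = 0.0172, same exact test). Both excesses were larger than the spread between mice.

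Across families, the summed KChIP message exceeded the summed pore message per kb of exon. The summed levels were 1339 ± 205 normalized counts per kb for the 4 KChIPs, 836 ± 192 for the 2 pore genes and 433 ± 86.3 for the 2 DPP genes (SD, n = 8). The log2 ratio of KChIPs to pores was 0.69 ± 0.31, or 1.61-fold (higher in 8 of 8 mice, adjusted p = 0.0172, exact sign-flip test). That of DPPs to pores was -0.95 ± 0.41, a 1.93-fold lower level of the DPPs (8 of 8 mice, adjusted p = 0.0172, same test). Both depend on the length used. Without a length correction the KChIP to pore ratio turned to -0.57 (adjusted p = 0.00955, same test). The DPP to pore ratio was then -0.38 (adjusted p = 0.0688).

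Not all neighbours in the order could be told apart. Kcnip4 and Kcnd3 differed by 0.09 ± 0.36 on the log2 scale (4 of 8 control mice above 0, adjusted p = 0.508, exact sign-flip test). Kcnd3 exceeded Kcnip3 by 0.57 ± 0.58 (7 of 8 mice, adjusted p = 0.0246), and Dpp6 exceeded Kcnd2 by 1.42 ± 0.30 (8 of 8 mice, adjusted p = 0.0172). Kcnip3 against Dpp6 (0.52 ± 0.62, 7 of 8 mice, adjusted p = 0.0645), Kcnd2 against Dpp10 (0.31 ± 0.56, 6 of 8, adjusted p = 0.181) and Kcnip1 against Kcnip2 (1.02 ± 4.22, 6 of 8, adjusted p = 0.508) did not pass the exact test. Without control mouse 6 the Kcnip3 to Dpp6 ratio was 0.69 and passed (adjusted p = 0.0286). The Kcnip1 to Kcnip2 ratio rested on single mice: it was 2.20 without control mouse 7 (adjusted p = 0.0430) and 0.01 without control mouse 1, which had no Kcnip2 count (adjusted p = 1).

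Dpp10 exceeded Kcnip1 by 1.43 ± 2.29 (7 of 8 mice, adjusted p = 0.0246, exact sign-flip test), with 6.80 in control mouse 7. Without that mouse the mean was 0.67. Per kb of coding sequence, the order of the lower genes changed to Dpp10 with 667 ± 209 (SD, n = 8), Kcnip1 with 550 ± 312, Kcnd2 with 344 ± 101 and Kcnip2 with 158 ± 148 normalized counts per kb. The log2 ratio of Kcnd2 to Dpp10 was then -0.96. The exons of Dpp10 span 15.784 kb for a coding sequence of 2400 bases, so its place in the order depends on the length used. The upper 4 genes kept their order under both lengths, but not without a length correction. Kcnip4 to Kcnd3 was then -1.31 and Kcnip3 to Dpp6 -1.28 (adjusted p = 0.00955 each, exact sign-flip test).

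**Figure D2:**
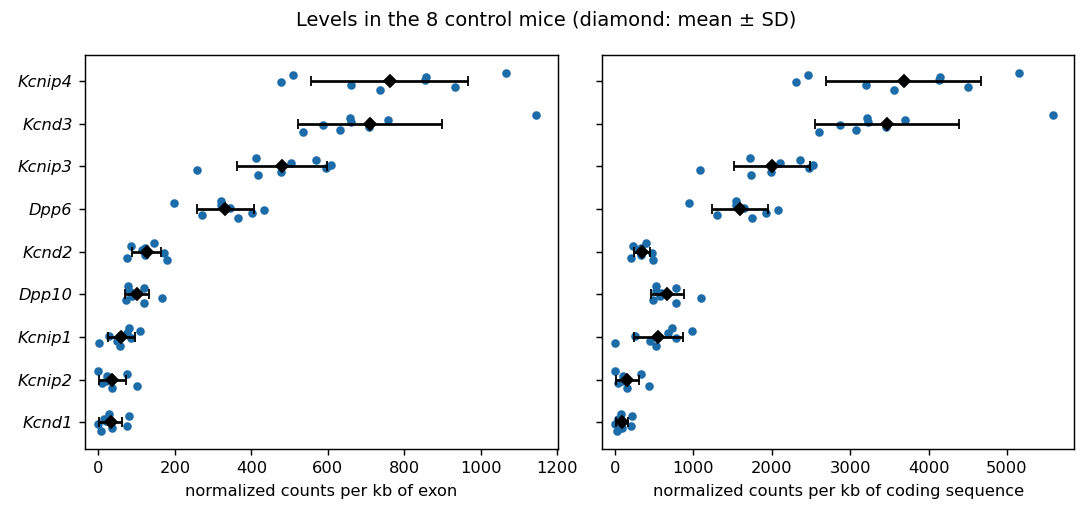
Normalized counts per kb of exon (left) and per kb of coding sequence (right) of the 8 members and Kcnd1 in control mice, each point 1 of 8 mice, diamonds and bars the mean ± SD. Kcnip4, Kcnd3, Kcnip3 and Dpp6 lead on both scales, and Kcnd2 stands above Dpp10 and Kcnip1 per kb of exon but below them per kb of coding sequence.

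Per kb of exon, the same order of the families was seen in MCU-KO mice. The log2 ratio of Kcnd3 to Kcnd2 was 2.47 ± 0.49, that of Dpp6 to Dpp10 1.62 ± 0.48, that of KChIPs to pores 0.83 ± 0.31 and that of DPPs to pores -0.96 ± 0.34 (SD, n = 8, each in 8 of 8 mice, adjusted p = 0.0107, exact sign-flip test). Kcnip4 exceeded Kcnd3 in these mice by 0.39 ± 0.38 (6 of 8 mice, adjusted p = 0.0382), and Kcnip3 exceeded Dpp6 by 0.47 ± 0.22 (8 of 8 mice, adjusted p = 0.0107).

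The second question was whether the messages of the complex differed between MCU-KO and control mice. By the paper's methods, the RiboTag controls came from matings of DAT-Cre+/+ with C57/BL6 mice, not from the floxed line. Loss of MCU and the background of the floxed line therefore cannot be told apart here. None of the 8 genes passed the test. Over all 12390 genes, 22 passed an adjusted p of 0.05 with edgeR, which is 0.178%, 11 higher and 11 lower in MCU-KO, and in 32 genes (0.258%) the groups had normalized counts without overlap. Against this background, 0 of the 8 members were called and 0 had groups that did not overlap. An unadjusted p under 0.05 was found for 0 members, beside 4.41% of all genes tested (edgeR). DESeq2 and limma-voom also called 0 of the 8, beside 90 of 15563 genes (0.578%) and 27 of 12390. Neither gave a member an unadjusted p under 0.05, which 913 genes had with DESeq2 and 829 with limma-voom. For 8 genes, counts of 0 are close to these shares and say little about the complex. The fitted change was above 0 for 5 members and below 0 for 3, with a median log2 fold change of 0.07 and a range of -0.22 to 0.37, beside a median of 0.003 over all genes tested.

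The pore genes had close means in both genotypes. Kcnd3 ranged from 5098 to 9916 normalized counts with a median of 6275 in MCU-KO mice, and its mean was 6947 ± 1818 against 6809 ± 1805 in control mice (SD, n = 8 each). Its log2 fold change was 0.03 (SE 0.16, 95% confidence interval -0.30 to 0.36, adjusted p = 1, edgeR). The interval corresponds to 0.814-fold to 1.28-fold. Kcnd3 varied among mice of a genotype with a coefficient of 23.1%, above that of 95% of the 500 genes whose mean level lay within 0.5 log2 units of its own.

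Kcnd2 ranged from 417 to 1237 normalized counts with a median of 580 in MCU-KO mice. MCU-KO mice 5 and 6 were the high ones, with 1184 and 1237, and the other 6 lay between 417 and 615, inside the control range. The log2 fold change was 0.12 (SE 0.27, interval -0.45 to 0.68, adjusted p = 1, edgeR), and it was -0.05 without MCU-KO mouse 6 and -0.03 without MCU-KO mouse 5.

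Kcnip4 had the smallest p of the 8. It ranged from 2294 to 4926 normalized counts with a median of 3066 in MCU-KO mice, and its mean was 3452 ± 947 against 2762 ± 743 in control mice. MCU-KO mice 5, 7 and 8, with 4926, 4633 and 3979, lay above the highest control mouse at 3864, and the other 5 MCU-KO mice lay within the control range. The log2 fold change was 0.32 (SE 0.18, interval -0.05 to 0.69), with an unadjusted p of 0.0850 and an adjusted p of 1 (edgeR).

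Kcnip3 ranged from 1232 to 1983 with a median of 1522 in MCU-KO mice, and its log2 fold change was -0.09 (SE 0.16, interval -0.43 to 0.25). The 2 lowly expressed KChIPs could not be measured closely. Kcnip1 ranged from 147 to 558 in MCU-KO mice, with a log2 fold change of -0.22 (SE 0.54, interval -1.34 to 0.90) that turned to 0.28 under limma-voom. Kcnip2 ranged from 47.8 to 456, with a log2 fold change of 0.37 (SE 0.81, interval -1.31 to 2.06). MCU-KO mouse 6 gave the highest Kcnip2 value, and without it the change was -0.04. The change was 1.19 with limma-voom and 0.79 without control mouse 7, and it passed under neither. Intervals for Kcnip1 and Kcnip2 include changes of more than 2-fold, downward for Kcnip1 and in both directions for Kcnip2, so such changes were not excluded. Those of the other 6 members lay within 1 log2 unit of 0 on both sides, as did 6417 of the 12390 genes tested.

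Dpp6 was the most even member. It ranged from 3538 to 4599 normalized counts with a median of 4005 in MCU-KO mice, all inside the control range, and its mean was 3984 ± 322 against 4100 ± 916 in control mice. The log2 fold change was -0.04 (SE 0.13, interval -0.30 to 0.22, adjusted p = 1, edgeR) and 0.06 with the glial markers as a covariate. Dpp10 ranged from 989.6 to 2408 with a median of 1864, and its log2 fold change was 0.11 (SE 0.21, interval -0.32 to 0.54).

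**Figure D3:**
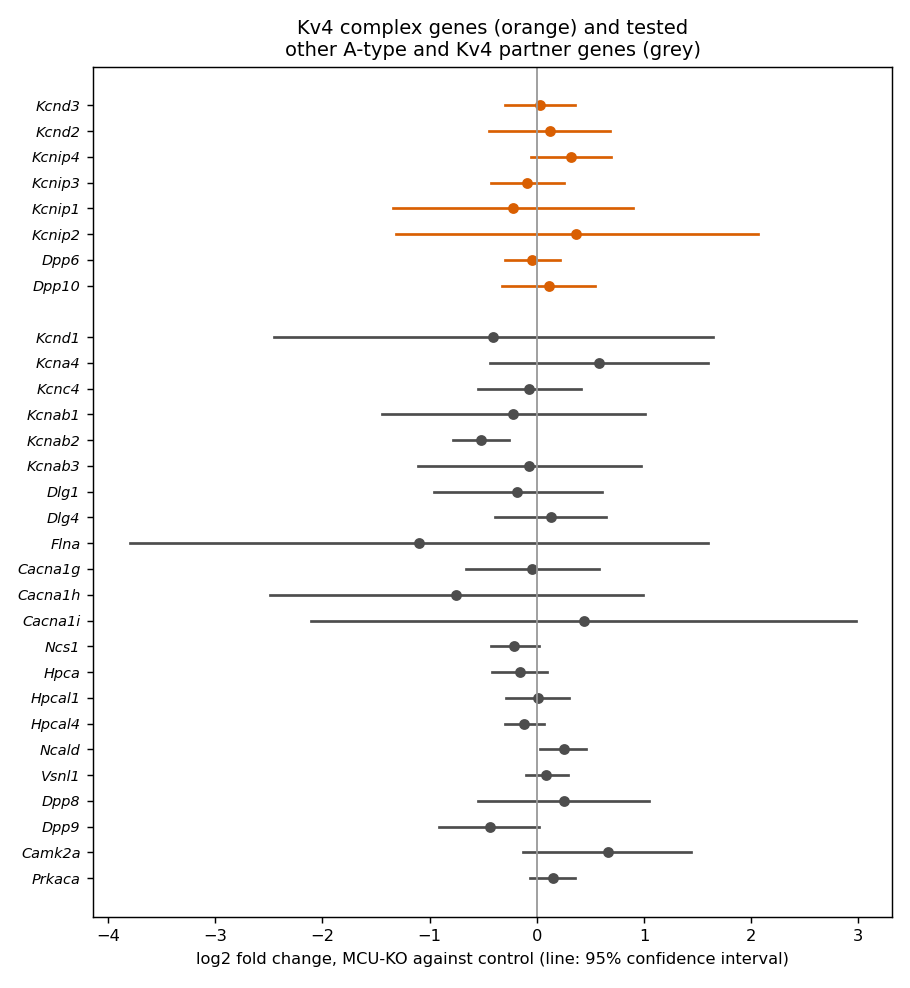
Log2 fold changes of MCU-KO against control with 95% confidence intervals (edgeR, n = 8 mice per genotype) for the 8 Kv4 complex genes (orange) and 22 of the 25 tested genes of the list of other A-type channel and Kv4 partner genes (grey). All 8 orange intervals cross 0, and the widest belong to Kcnip2 and Kcnip1.

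A change in make-up need not show in a single gene, so the same ratios and the share of each member in its own family were compared between genotypes by an exact permutation test over 12870 splits (two-sided, n = 8 and 8, smallest possible p 0.00016, Benjamini-Hochberg adjustment over 19 measures). Kcnd3 made up 84.5 ± 5.39% of the pore message per kb in control mice and 84.3 ± 4.76% in MCU-KO mice (SD, n = 8 each, exact p = 0.925, adjusted p = 0.942). Dpp6 made up 76.3 ± 6.82% and 75.0 ± 6.04% of the DPP message (exact p = 0.696, adjusted p = 0.942). The log2 ratio of Kcnd3 to Kcnd2 differed by -0.04 (exact p = 0.877) and that of DPPs to pores by -0.01 (exact p = 0.942).

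The KChIPs had the largest differences in share, and these did not pass the test either. Kcnip4 held 56.5 ± 10.8% of the KChIP message in control mice, from 40.4% to 68.4%, and 62.5 ± 7.61% in MCU-KO mice, from 50.9% to 73.8% (exact p = 0.229, adjusted p = 0.942). Kcnip3 held 36.0 ± 8.59% and 30.7 ± 6.05% (exact p = 0.174, adjusted p = 0.942). Kcnip1 held 4.71 ± 2.72% and 3.60 ± 1.57%, and Kcnip2 held 2.73 ± 2.39% and 3.29 ± 3.10%. The smallest p of the 19 was 0.121, for the log2 ratio of Kcnip4 to Kcnd3, which was 0.30 higher in MCU-KO mice (adjusted p = 0.942, exact permutation test).

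**Figure D4:**
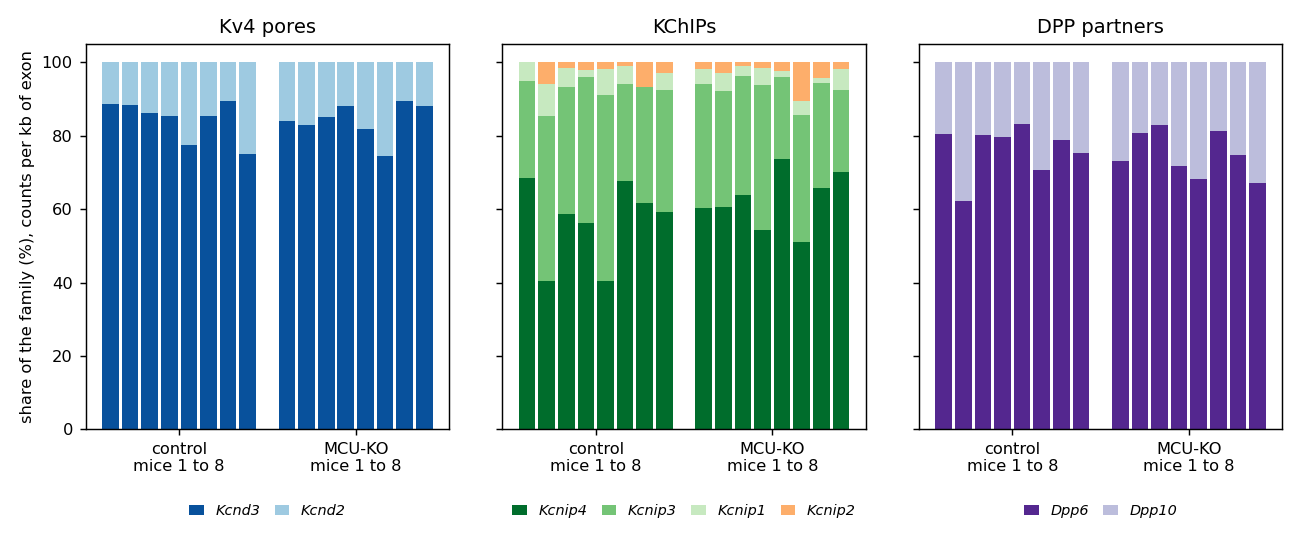
Share of each gene in its family (percent of the summed normalized counts per kb of exon), 1 bar per mouse, control mice 1 to 8 on the left and MCU-KO mice 1 to 8 on the right of each panel. Kcnd3 holds between 74.6% and 89.5% of the pore message in every mouse, while the Kcnip4 share ranges from 40.4% to 73.8%.

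Whether the families varied together among mice was tested on the log2 of their summed levels per kb, centred within genotype. Permutation tests with 100000 resamples were run over 16 mice, with Benjamini-Hochberg adjustment over 3 pairs. Pores and KChIPs gave Pearson's r = 0.45 (p = 0.0769, adjusted p = 0.231, permutation) and Spearman's rho = 0.38 (p = 0.151, permutation), and r = 0.17 without the 2 mice farthest from the median of the pores. Pores and DPPs gave r = 0.14 (p = 0.595, permutation) and rho = 0.18 (p = 0.513), and r = 0.16 without 2 mice. KChIPs and DPPs gave r = -0.10 (p = 0.710, permutation) and rho = 0.05 (p = 0.866), and r = -0.39 without 2 mice.

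The last of these pooled values joined genotypes whose own values of r had opposite signs. In control mice the summed KChIP and DPP levels gave r = -0.64, which did not pass the test (exact permutation p = 0.0886, adjusted p = 0.266 over 6 values, rho = -0.64, exact p = 0.0962, n = 8). In MCU-KO mice they gave r = 0.86 (exact permutation p = 0.00298, adjusted p = 0.0179 over 6 values, rho = 0.93, exact p = 0.00223, n = 8), and 0.70 without the 2 mice farthest from the median. The difference in r was 1.5 (exact permutation test over 12870 splits, p = 0.00528, adjusted p = 0.0159 over 3 pairs). In control mice the relation rested on 2 mice, since without the 2 farthest from the median r was 0.00. Adjusted p for the difference was 0.102 without control mouse 6, 0.0690 without control mouse 5 and 0.0508 without control mouse 8. These values within genotypes were computed after the pooled ones had been seen. Within genotypes, pores and KChIPs gave r = 0.32 and 0.56 in control and MCU-KO mice, and pores and DPPs -0.01 and 0.39 (exact p of each difference 0.564 and 0.335). Without the 2 mice farthest from the median of the pores, these became -0.64 and 0.35 for pores and KChIPs and 0.59 and 0.41 for pores and DPPs, so the control values rested on 2 mice.

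**Figure D5:**
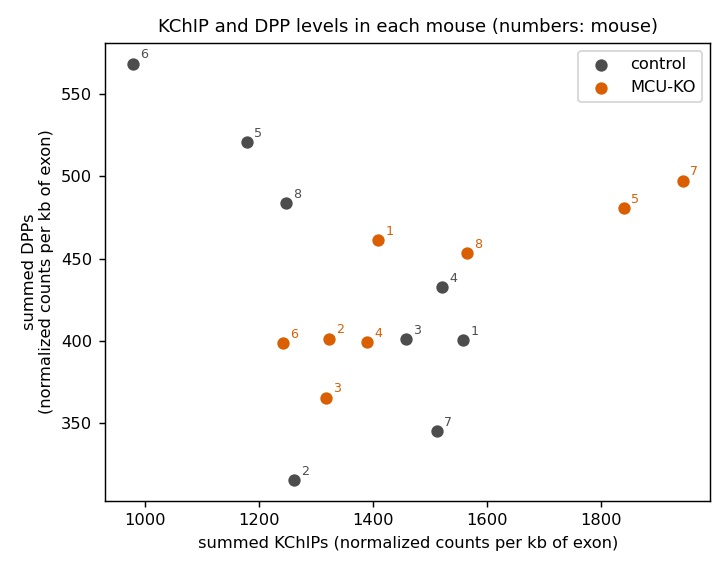
Summed KChIP against summed DPP levels (normalized counts per kb of exon), each point 1 mouse with its number, control grey and MCU-KO orange. The 8 MCU-KO mice run from lower left to upper right (r = 0.86, computed on log2 levels). Control mice 5, 6 and 8 have low KChIP and high DPP levels. Control mouse 2 has a KChIP level (1262) close to that of control mouse 8 (1246.5) but the lowest DPP level of the control mice (316).

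To place the pore genes among all messages, the genes whose log2 CPM followed them most closely over the 16 mice, after centring within genotype, were found among 11809 genes with a mean of at least 50 counts. This is a description, since all values of a mouse share 1 library and its depth. The genes named were picked for high values among the 11809, and these values were not tested against chance. For Kcnd3, high values were those of Slc18a2, the vesicular monoamine transporter (r = 0.86, rho = 0.79) and Nwd2 (r = 0.85, rho = 0.75). For Kcnd2 they were Ctnnd2, which encodes delta-catenin (r = 0.83, rho = 0.80), Wdr44 (r = 0.76, rho = 0.70) and Sart3, a splicing factor (r = 0.76, rho = 0.68). Within the complex, Kcnd3 was most like Kcnip4 (r = 0.53), and Kcnd2 most like Dpp6 (r = 0.47). The pore genes gave r = 0.31 with each other.

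Other genes of A-type channels and of known Kv4 partners formed a list of 31, of which 25 were tested. With edgeR and limma-voom 0 were called, beside 0.178% of all genes with edgeR and 27 of 12390 with limma-voom. DESeq2 called 1 (Kcnab2), beside 0.578% of genes with an adjusted p. In the edgeR fit 3 had an unadjusted p under 0.05 (12%, beside 4.41% of all genes tested). The fitted change was above 0 for 10 and below 0 for 15, with a median of -0.07. No gene of the list had groups that did not overlap.

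Of the Kv beta subunits, Kcnab2, a cytosolic partner of Kv1 channels that is also reported with Kv4, had the smallest p of the list. It ranged from 1995 to 3184 normalized counts with a median of 2551 in control mice and from 1504 to 2257 with a median of 1756 in MCU-KO mice. All but 1 of the MCU-KO mice lay below the lowest control mouse, the exception being MCU-KO mouse 7. The log2 fold change was -0.52 (SE 0.13, interval -0.78 to -0.26, unadjusted p = 0.000457, adjusted p = 0.166, edgeR). Under DESeq2 the change was also -0.52 and passed the threshold (adjusted p = 0.0107), where 0.578% of genes with an adjusted p were called. Over all alternatives that kept every mouse, the adjusted p ranged from 0.0107 to 0.756, the highest with the glial covariate, where the change was -0.44. Kcnab1 and Kcnab3 had log2 fold changes of -0.22 (SE 0.59) and -0.07 (SE 0.50).

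Of the other A-type pores, Kcna4 (Kv1.4) had a log2 fold change of 0.58 (SE 0.49), Kcnc4 (Kv3.4) of -0.07 (SE 0.23) and Kcnd1 of -0.41 (SE 0.98), and none of these had an unadjusted p under 0.05. The 4 KCNE genes of the list were too low to test: Kcne1 and Kcne3 had no count in any of the 16 mice, Kcne2 had none in 14 and Kcne4 none in 15.

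The neuronal calcium sensors, the nearest relatives of the KChIPs, were all tested, 3 above and 3 below 0, and none was called. Ncald (neurocalcin delta) ranged from 3013 to 4531 normalized counts in control and from 3941 to 5492 in MCU-KO mice, with a log2 fold change of 0.25 (SE 0.10, interval 0.03 to 0.46, unadjusted p = 0.0247, adjusted p = 1, edgeR). Per kb of exon, Vsnl1 (visinin-like protein 1) was above 98.3% of the genes tested, Hpcal1 above 95.8% and Ncald above 79.7%, beside 87.0% for Kcnip4. Of the anchoring proteins Dlg1, Dlg4 and Flna, the Cav3 channel genes Cacna1g, Cacna1h and Cacna1i, and the kinases Camk2a and Prkaca, none had an unadjusted p under 0.05. Among the peptidase relatives of the DPP genes, Dpp8 and Dpp9 were tested and neither had a p under 0.05, while Fap had no count in any mouse and Dpp4 none in 13 of 16.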

How the data were processed

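RiboTag mRNA of SNc dopaminergic neurons was sequenced from 8 control and 8 MCU-KO mice, grouped by the sample labels. After trimming (cutadapt, Trim Galore) and STAR alignment to mm10, the authors deposited raw whole-number counts for each Ensembl gene, made by htseq-count. Tool versions, the Ensembl release, read length and strandedness are not given in the sources used here. Reads carried no stated molecular identifiers, so depth limits (3 counts) cover counting error only. The chi-square per degree of freedom of the closest pair of libraries was 82.2, so all libraries were kept as separate replicates.

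Symbols and exon and coding lengths came from GENCODE M21 (GRCm38), with 24942 identifiers matched. All 16 mice entered 1 quasi-likelihood fit (R 4.3.3, edgeR 4.0.16: filterByExpr on the groups, TMM, estimateDisp, glmQLFit, glmQLFTest). Its p-values were adjusted by Benjamini-Hochberg across the 12390 genes kept, and 0.05 was the cutoff. Standard errors came from the coefficient and F, and intervals (95%) from the t quantile. Normalized counts used DESeq2 1.42.0 size factors. Ratios used a pseudocount of 1 before division by length. Exact tests used numpy 2.4.6 in Python 3.11.15. Scripts were tested on simulated data. Alternatives used DESeq2, limma-voom (limma 3.58.1), other normalizations, filters and covariates, a block for the mouse number, other lengths, a pseudocount of 5 and the omission of each mouse. Kcnd1 as a further pore gene and all alternatives for the correlations were chosen after seeing the data.

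The members and lists were chosen with earlier results of these data known, and no p was adjusted over a list alone. Genes named are the members, Mcu, Kcnd1, the genes of the partner list past the threshold or else its 3 of smallest p, and for each pore gene the 3 most alike of those with a mean of at least 50 counts. Other genes of the partner list are named outside this rule, and some genes that the rule or the list holds are not reported here. The labels name separate mice but no batch, and p-values measure the spread between these mice.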

Additional observations from a re-analysis of the deposited data

Results flagged for a closer look

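Kcnd3 in control mouse 1 had 10969.7 normalized counts, and the next control mouse had 7269. The gap was 0.633 of the range of the 8 control mice, above Dixon's 95% critical value for 8 values. Of 24 groups of 8 mice examined (each member and 4 ratios in each genotype), 1 held such a mouse, where chance gives about 1 in 20, or 1.2 groups. Without that mouse the log2 fold change of Kcnd3 was 0.16.

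The correlation of summed KChIP and summed DPP levels (log2 scale) differed between the genotypes by 1.5 in Pearson's r, from -0.64 in control to 0.86 in MCU-KO mice (exact permutation test, p = 0.00528, adjusted p = 0.0159 over 3 pairs, n = 8 and 8). These values were computed after the pooled ones had been seen. The control r did not pass on its own (exact permutation test, adjusted p = 0.266 over 6 values) and rested on 2 mice. The difference lay between 1.24 and 1.76 when each mouse was left out. Its adjusted p rose above 0.05 without control mouse 5, 6 or 8, which together had the highest DPP levels of the control mice (483 to 568 normalized counts per kb). The summed levels of a mouse come from 1 library, whose part in the correlation was not tested.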

How the results depend on the processing

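The count of members called was 0 under every alternative run. Over all genes, DESeq2 called 90 and the fit with the replicate block 14, against 22, and 18 to 24 were called when each mouse was left out. Mouse numbers did not pair the mice (same-number correlations over 0.1 in 0 of 8 pairs), and the block changed no other call. Signs of uncalled changes turned for Kcnip1 (0.28 with limma-voom, 0.13 with the replicate block) and Dpp6 (0.06 with the glial covariate). Kcnip2 was 1.19 with limma-voom and 0.60 with the replicate block. The difference in the Kcnd3 share was 0.31 points with Kcnd1 as a pore. Leaving out each mouse gave log2 fold changes of -0.12 to 0.02 for Dpp6, -0.05 to 0.21 for Kcnd2, -0.06 to 0.16 for Kcnd3 and -0.04 to 0.79 for Kcnip2. Genotype differences then ranged from -0.17 to 0.09 for Kcnd3 to Kcnd2, from -0.12 to 0.05 for DPPs to pores, from -1.61 to 1.14 points for the Kcnd3 share and from -0.49 to 1.12 points for the Kcnip2 share. In control mice, the ratio of Kcnd2 to Dpp10 was -0.96 per coding kb and -1.30 without length correction. Without length correction, KChIPs to pores was -0.57, DPPs to pores -0.38 (adjusted p = 0.0688), Kcnip4 to Kcnd3 -1.31 and Kcnip3 to Dpp6 -1.28. These settings change only the length by which counts are divided. Dpp10 to Kcnip1 was 0.96 per coding kb and no longer passed (adjusted p = 0.284). The pooled r of KChIPs and DPPs ranged from -0.26 to 0.23 with each mouse left out (0.23 without control mouse 6), and the difference in r from 1.24 to 1.76. A minimum of 10 counts in every mouse left no value for Kcnip1, Kcnip2, Kcnd1 and Mcu. At the spread of these mice, the median 95% interval of a log2 fold change was 1.40 wide over all genes tested.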
